A study of Mus musculus with 12 samples.

Results

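The 8 genes described here encode enzymes of lysine breakdown and of the metabolism of glutarate and hydroxyglutarate in liver: Aass, Aldh7a1, Aadat, Dhtkd1, Gcdh, Sugct, D2hgdh and Adhfe1. They are 8 of the 27105 genes of the deposited count table, taken by gene symbol, and all 8 passed the filter on low counts. They were chosen by their place in the pathway and with their read counts on the 2 diets known, Sugct above all, so their diet differences are given as a description with no test. RNA was sequenced from livers of mice on a control diet (6 libraries) and of mice on a ketogenic diet (6 libraries), a high-fat diet with little carbohydrate that drives ketone body formation in liver. The series calls the libraries biological replicates; no other treatment or genotype is named for either group. The sources used here do not state strain, sex, age, diet composition or length of feeding. Libraries are named by diet and replicate number.

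Lysine is broken down mainly in liver mitochondria. Aass, a protein with both a lysine-ketoglutarate reductase and a saccharopine dehydrogenase activity, joins lysine to 2-oxoglutarate and splits the product. Aldh7a1 oxidises the resulting semialdehyde to 2-aminoadipate, Aadat transaminates it to 2-oxoadipate, and the complex that holds Dhtkd1 turns this into glutaryl-CoA. Gcdh then dehydrogenates and decarboxylates glutaryl-CoA to crotonyl-CoA, which joins fatty acid oxidation. Glutaryl-CoA that loses its CoA becomes glutarate, and Sugct rescues it by moving CoA from succinyl-CoA back to glutarate. In humans, loss of GCDH causes a glutaric aciduria, and loss of SUGCT causes another with raised urinary glutarate. Adhfe1, a hydroxyacid-oxoacid transhydrogenase, oxidises 4-hydroxybutyrate while reducing 2-oxoglutarate to D-2-hydroxyglutarate, and D2hgdh oxidises D-2-hydroxyglutarate back to 2-oxoglutarate.

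The libraries held 30.2 to 33.5 M counts, with 31.7 ± 1.31 M on the control and 32.7 ± 0.937 M on the ketogenic diet (mean ± SD, n = 6; two-sided exact permutation test, p = 0.173). Levels are in CPM, a gene's counts scaled to a common library size, with library sizes adjusted by TMM, a method that aligns the bulk of genes between libraries. The 8 genes together took 0.0943 to 0.19% of the counts of a library. The summed level of 6 hepatocyte markers (Alb, Ttr, Apoa1, Cps1, Asgr1 and Hnf4a) was 73300 to 109000 CPM on the control and 68300 to 90700 CPM on the ketogenic diet. Most of that sum was Alb, at 57800 to 92600 and 50600 to 73400 CPM. The markers did not move together: the ratio of means, ketogenic over control, was 1.33 for Apoa1 and 0.761 (Cps1) to 0.894 (Asgr1) for the others. Markers of bile duct, macrophages, endothelium, stellate cells and lymphocytes were detected at lower sums, the ranges of the diets overlapped in each list, and none of their members, nor of the hepatocyte list, was called between diets. The adipocyte markers Adipoq and Plin1 and the kidney markers Umod, Slc34a1 and Kap were below 1 CPM in every library. Ketogenic 4 stood apart: its median correlation with its own group was 0.951, against 0.972 to 0.984 in the other 11 libraries. Its deviations from the diet mean ran against exon length (Spearman rho -0.512 across 13972 genes, against -0.39 to 0.362 in the others), so several values are given with and without it.

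Of the 13995 genes that entered edgeR's quasi-likelihood test, 3.78% passed an adjusted p (Benjamini-Hochberg) of 0.05 and are named called, 2.34% as higher and 1.44% as lower on the ketogenic diet. Of the 8 genes, 4 passed that threshold as higher (Gcdh, Sugct, D2hgdh and Adhfe1) and 0 as lower, a count that their choice fixes in part and from which nothing is read. Without ketogenic 4, when 5.39% of all genes were called, the same 4 passed. With each of the 12 libraries left out in turn, 2 to 4 passed: Sugct and Adhfe1 did so each time, while Gcdh did not pass in 9 of the 12 fits and D2hgdh in 7. These fits reuse the contrast that was known when the genes were chosen, so nothing is read from them as support. The log2 fold change was above 0 in 7 of the 8, as it was in 49.9% of all genes tested, and their median was 0.47, against -0.001 over all genes tested. In 3 of the 8, Aldh7a1, Sugct and Adhfe1, each ketogenic library lay above each control library, a pattern held by 2.17% of all genes tested (1.37% in the opposite direction). In bulk liver RNA, fewer cells of a type and less RNA per cell cannot be told apart. Each fold change is given as log2 (ketogenic over control) ± SE from one fit to all genes, and means are ± SD with n = 6 per diet.

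**Figure D1:**
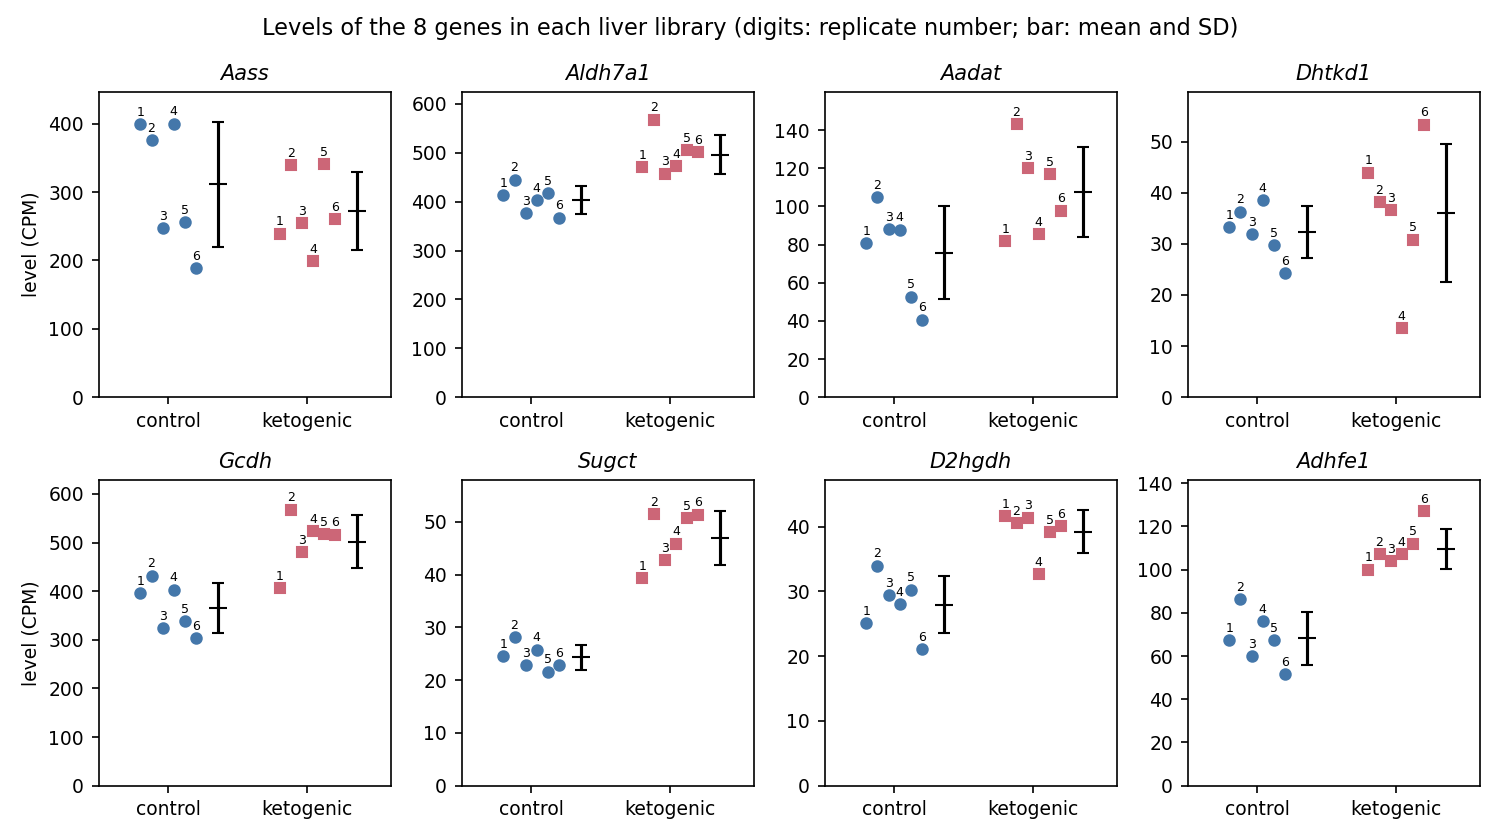
Level in CPM (vertical axis, from 0) of each of the 8 genes in the 6 control (circles) and 6 ketogenic (squares) libraries, with the replicate number above each point and the mean and SD beside each group. The diets do not overlap in Aldh7a1, Sugct and Adhfe1, while Aass and Dhtkd1 overlap widely, with ketogenic 4 at 13.5 CPM of Dhtkd1.

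The entry enzyme Aass (ENSMUSG00000029695, chromosome 6, 23072172 to 23132985, positions as the authors' table lists them, with no genome build stated) was the only one of the 8 with a lower mean on the ketogenic diet. Its lowest, median and highest levels were 189, 316 and 400 CPM on the control diet and 199, 258 and 341 CPM on the ketogenic diet. The whole ketogenic range lay inside the control range. The mean was 311 ± 91.4 against 272 ± 56.7 CPM, a log2 fold change of -0.19 ± 0.20, and -0.12 ± 0.20 without ketogenic 4. Control libraries split into 376 to 400 CPM in controls 1, 2 and 4 and 189 to 256 CPM in controls 3, 5 and 6.

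Aldh7a1 (ENSMUSG00000053644, chromosome 18, 56642759 to 56706023), the semialdehyde dehydrogenase, was among the steadiest of the 8. It lay at 367, 408 and 445 CPM on the control diet and at 457, 487 and 568 CPM on the ketogenic diet (lowest, median and highest). All 6 ketogenic libraries were above all 6 controls, by a narrow gap between 445 and 457 CPM. The log2 fold change was 0.30 ± 0.09 and the coefficient of variation was 7.06% and 8.02% within the diets.

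The transaminase gene Aadat (ENSMUSG00000057228, chromosome 8, 60958966 to 60998711), which also transaminates kynurenine, ranged more widely. Its levels were 40.6, 84.2 and 105 CPM on the control diet and 81.9, 107 and 143 CPM on the ketogenic diet. Only 3 ketogenic libraries (2, 3 and 5) exceeded the highest control, and 3 controls (1, 5 and 6) lay below the lowest ketogenic library. The means were 75.8 ± 24.2 and 108 ± 23.5 CPM, and the log2 fold change 0.51 ± 0.21.

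Dhtkd1 (ENSMUSG00000025815, chromosome 2, 5900926 to 5947603) encodes the first component of the 2-oxoadipate dehydrogenase complex. It lay at 24.3, 32.6 and 38.6 CPM on the control diet and at 13.5, 37.4 and 53.3 CPM on the ketogenic diet. Ketogenic 4 was the lowest of the 12 libraries, with 422 counts against 690 to 1773 in the others, and ketogenic 1 and 6 were the highest. The log2 fold change was 0.16 ± 0.24 with all libraries and 0.33 ± 0.14 without ketogenic 4, where the ketogenic mean was 40.6 ± 8.52 CPM against 32.4 ± 5.02 CPM on the control diet. With an annotated exon total of 6333 bases Dhtkd1 is the longest of the 8, and ketogenic 4 is the library in which genes with a long exon total ran low. Log2 deviations from the diet mean in ketogenic 4 are listed here from the longest exon total to the shortest. They were -1.3 in Dhtkd1, -0.06 in Aldh7a1 (5181 bases), -0.26 in D2hgdh (4281 bases) and -0.43 in Aass (3817 bases). Next came -0.03 in Adhfe1 (3780 bases), -0.02 in Sugct (3429 bases), 0.07 in Gcdh (2754 bases) and -0.30 in Aadat (2178 bases). The part of the length trend in the value of Dhtkd1 was not tested.

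Gcdh (ENSMUSG00000003809, chromosome 8, 85613022 to 85620550), the flavoenzyme that turns glutaryl-CoA into crotonyl-CoA, was the most abundant of the 8 per length. It lay at 303, 367 and 432 CPM on the control diet and at 406, 517 and 568 CPM on the ketogenic diet. Of the ketogenic libraries, 5 exceeded every control; ketogenic 1, at 406 CPM, lay below control 2 at 432 CPM. The means were 366 ± 51.5 and 502 ± 54.7 CPM and the log2 fold change was 0.46 ± 0.12.

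Sugct (ENSMUSG00000055137, chromosome 13, 17032057 to 17870138), the glutarate CoA-transferase, had the highest fold change of the 8. It lay at 21.6, 23.8 and 28.1 CPM on the control diet and at 39.4, 48.3 and 51.5 CPM on the ketogenic diet. The diets were separated by a gap from 28.1 CPM in control 2 to 39.4 CPM in ketogenic 1. The means were 24.3 ± 2.36 and 46.9 ± 5.08 CPM, a ratio of 1.93 and a log2 fold change of 0.95 ± 0.10, the same without ketogenic 4. Within the diets it varied by 9.68% and 10.8% (coefficient of variation), against 29.4% and 20.8% for Aass.

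Of the hydroxyglutarate genes, D2hgdh (ENSMUSG00000073609, chromosome 1, 93752631 to 93780070), the dehydrogenase that removes D-2-hydroxyglutarate, lay at 21.1, 28.7 and 34 CPM on the control diet and at 32.7, 40.3 and 41.6 CPM on the ketogenic diet. The other 5 ketogenic libraries, at 39.2 to 41.6 CPM, were above every control, whereas ketogenic 4, at 32.7 CPM, lay below control 2. The log2 fold change was 0.49 ± 0.11, and 0.53 ± 0.10 without ketogenic 4.

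Adhfe1 (ENSMUSG00000025911, chromosome 1, 9618173 to 9650898), the transhydrogenase that forms D-2-hydroxyglutarate, lay at 51.6, 67.4 and 86.2 CPM on the control diet and at 100, 107 and 127 CPM on the ketogenic diet. No ketogenic library fell into the control range. The means were 68.1 ± 12.1 and 109 ± 9.33 CPM, and the log2 fold change was 0.68 ± 0.12, the second highest of the 8.

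Levels of different genes were compared per kb of annotated exon. On the control diet the order was Gcdh at 133 ± 18.7 CPM per kb, Aass at 81.5 ± 23.9, Aldh7a1 at 77.9 ± 5.5, Aadat at 34.8 ± 11.1, Adhfe1 at 18 ± 3.2, Sugct at 7.10 ± 0.687, D2hgdh at 6.54 ± 1.04 and Dhtkd1 at 5.11 ± 0.793 CPM per kb. Neighbours in that order overlapped in range between Aass and Aldh7a1, between Aadat and Adhfe1, between Sugct and D2hgdh, and between D2hgdh and Dhtkd1. On the ketogenic diet Gcdh was again the highest at 182 ± 19.9 CPM per kb, Aldh7a1 (95.7 ± 7.67) came before Aass (71.3 ± 14.9) with overlapping ranges, and Sugct, at 13.7 ± 1.48 CPM per kb, no longer overlapped D2hgdh at 9.17 ± 0.774 CPM per kb. Among all genes tested, the mean level per kb of Gcdh was at percentile 97.9, Aldh7a1 at 96.1, Aass at 95.6, Aadat at 92.4, Adhfe1 at 87.7, Sugct at 76.6, D2hgdh at 71.3 and Dhtkd1 at 63.4. Per kb of annotated exon, the mRNA of the complex subunit Dhtkd1 was the least abundant and that of the next enzyme, Gcdh, the most abundant. The first place of Gcdh depends on the exon lengths used. In CPM, Aldh7a1 was at 404 ± 28.5 and Gcdh at 366 ± 51.5 on the control diet. On the ketogenic diet they were at 496 ± 39.7 and 502 ± 54.7 CPM.

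**Figure D2:**
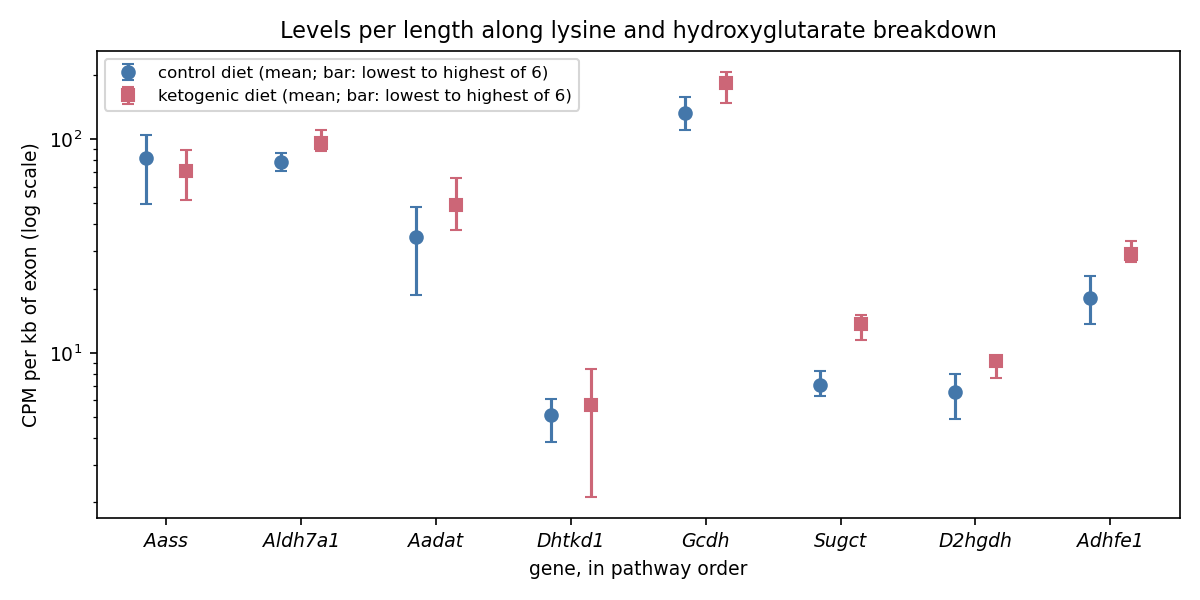
Level per kb of annotated exon (CPM per kb, log axis) of the 8 genes in pathway order, with circles for the control and squares for the ketogenic diet (mean of 6 libraries; bars from the lowest to the highest library). Gcdh is the highest on both diets, and the bars of Sugct do not overlap between diets.

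Ratios of mRNA levels within each library set the gene of the glutaryl-CoA sink beside that of the glutarate rescue. Protein, activity and flux were not measured here. Per kb, Sugct reached 5.00, 5.19 and 6.09% of the Gcdh level on the control diet (lowest, median and highest library) and 7.05, 7.53 and 8.0% on the ketogenic diet. The 2 ranges did not overlap, and ketogenic 4 was the lowest ketogenic library, at 7.05%. Gcdh was at 138 to 221% of the Aass level per kb on the control diet and at 210 to 365% on the ketogenic diet, with ranges that met between 210 and 221%. D2hgdh was at 32.4 to 43.2% of the Adhfe1 level per kb on the control diet and at 27.0 to 36.7% on the ketogenic diet, so that the pair that removes and forms D-2-hydroxyglutarate kept overlapping ratios. These ratios rest on the same counts as the fold changes and are a description too.

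Within a diet, the 8 genes tended to be high or low in the same libraries. As deviations of log2 CPM from the diet mean over the 12 libraries, all 28 pairs of the 8 genes had a positive correlation, with a median Pearson r of 0.62 (0.06 to 0.86), and the same median without ketogenic 4. The highest was that of Gcdh with Sugct (r = 0.86; 0.87 without ketogenic 4), followed by Aass with Aadat (0.79) and Gcdh with Adhfe1 (0.78). The lowest was Dhtkd1 with Gcdh (0.06; 0.29 without ketogenic 4). All genes of a library share its depth, RNA and scaling, so these are descriptions with no test. Whether the r values exceed those of other gene pairs was not tested.

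Control 6 was below its diet mean in all 8 genes, by 0.83 on the log2 scale in Aadat (-0.83) and 0.66 in Aass (-0.66), and by less in Sugct (-0.08) and Aldh7a1 (-0.13). The correlations above include control 6 and were not recomputed without it. Among the called genes of the lists below, control 6 was the lowest control in Suclg1, Sirt5, Dlst, Hadhb, Hadh and Acat1. It was not the lowest in Idh2, Kynu or Acmsd. Control 2 and control 4 were at or above the control mean in all 8. Among ketogenic libraries, ketogenic 2 was above its mean in 7 of 8, with Adhfe1 at -0.03. In ketogenic 4, Dhtkd1 (-1.3), Aass (-0.43), Aadat (-0.30) and D2hgdh (-0.26) were low while Sugct (-0.02), Adhfe1 (-0.03), Aldh7a1 (-0.06) and Gcdh (0.07) were near the mean.

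**Figure D3:**
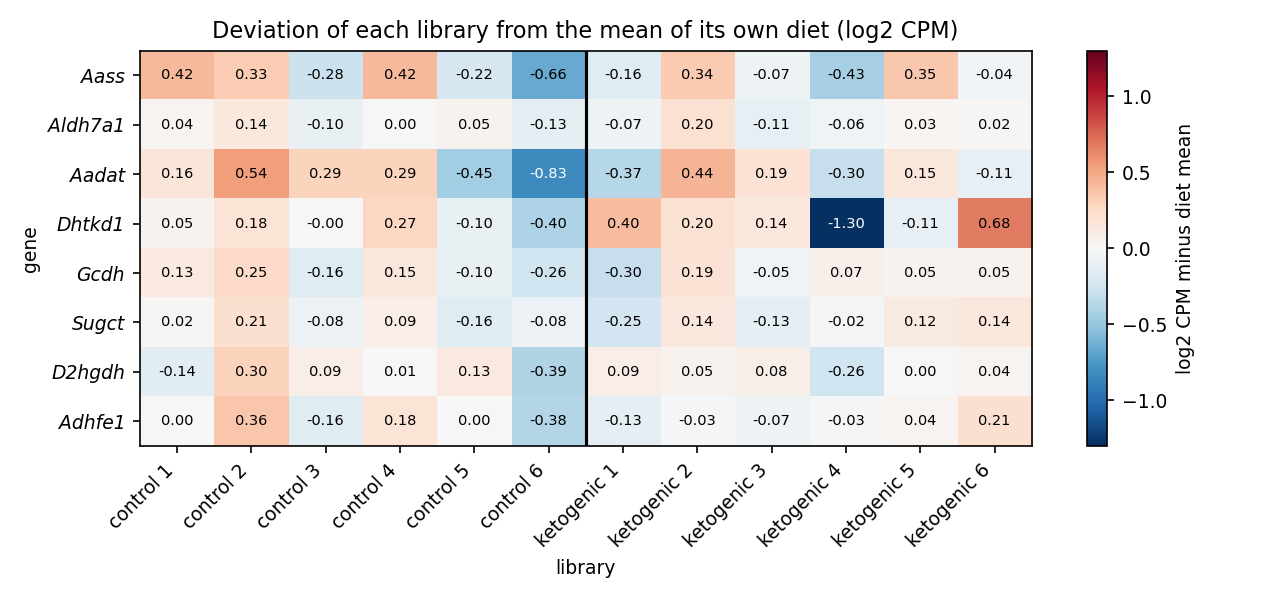
Deviation of each library from the mean of its own diet (log2 CPM, colour and number) for the 8 genes (rows) in the 12 libraries (columns, control left of the line). Control 6 is low in all 8 genes and ketogenic 4 is lowest in Dhtkd1 at -1.3.

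**Figure D4:**
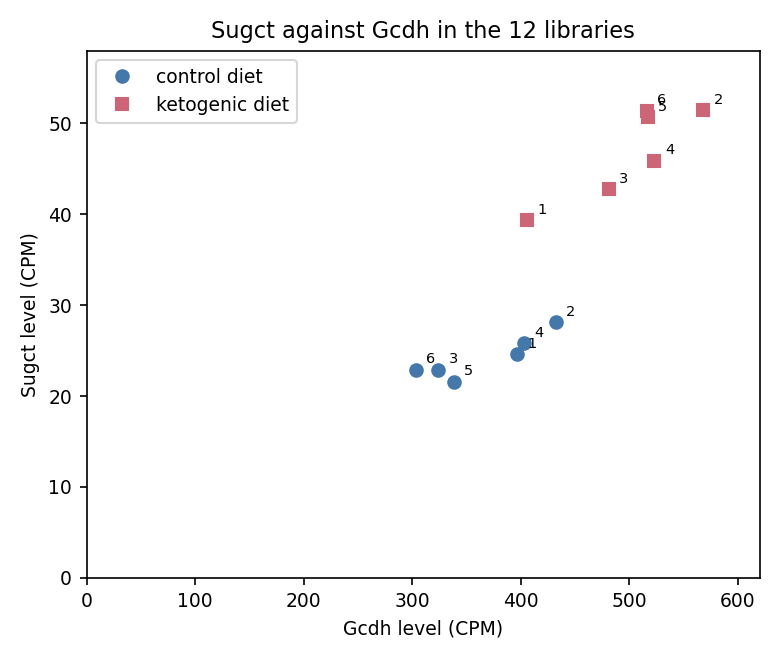
Sugct level against Gcdh level (both in CPM) in the 6 control (circles) and 6 ketogenic (squares) libraries, numbered by replicate. Within each diet libraries high in Gcdh tend to be high in Sugct (r = 0.86 over within-diet deviations), and the Sugct values of the diets are separated from 28.1 to 39.4 CPM.

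Among 12275 genes whose mean reached 1 CPM, those most like Sugct over the 12 libraries were Mccc2, a subunit of methylcrotonyl-CoA carboxylase in leucine breakdown (r = 0.978), Afg3l1 (0.958) and Lonp1 (0.955), both proteases of the mitochondrial matrix or inner membrane, Acad10 of the acyl-CoA dehydrogenase family (0.952) and Upb1, an enzyme of pyrimidine breakdown (0.948). As the diets form separate clusters for Sugct, these r values largely rank genes by how cleanly they separate the diets. Mccc2 went from 45 ± 5.27 to 73.1 ± 6.78 CPM and Acad10 from 27.3 ± 4.82 to 47.7 ± 5.81 CPM. The most opposed were Plcxd1 (-0.968), Pnpla3 (-0.954) and Kcp (-0.944), with Kcp at 6.65 ± 1.09 and 3.04 ± 0.725 CPM. Adhfe1 ranked 12 by this measure (r = 0.94), Gcdh 40 (0.92) and Aldh7a1 52 (0.91). By within-diet deviations the list was another, with Otc of the urea cycle (0.896), Taf4b (0.892), Pccb, a subunit of propionyl-CoA carboxylase (0.887), Gcdh (0.861) and Rdh5 (0.841). Mccc2 had r = 0.83 by that measure and D2hgdh 0.18.

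All 8 genes carry the term mitochondrion in the table's Gene Ontology column, as do 7.9% of the 18742 protein-coding genes in the table, and 6 carry oxidoreductase activity (2.7%). Their genes differ in span from 7.5 kb (Gcdh) to 838.1 kb (Sugct). Only 88 of the protein-coding genes span more than Sugct (0.470%), although its exons add up to 3429 bases in the GENCODE annotation. Of the 8, 5 overlapped another gene of the table. Sugct shares 362 bases at its 5′ end with Mplkip on the other strand, and Mplkip held 25.8% as many counts as Sugct (3593 against 13953 over all libraries). Mplkip was at 10.1 ± 1.84 CPM on the control and 8.44 ± 1.45 CPM on the ketogenic diet (-0.27 ± 0.15, edgeR adjusted p = 0.408), a difference of opposite sign to that of Sugct. The 3 small genes inside Sugct had 2 or 3 counts each over all libraries. Phax, which overlaps Aldh7a1, and Syce2, which overlaps Gcdh, held 4.61% and 1.15% as many counts as those genes. The noncoding genes 2610203C22Rik, which overlaps Adhfe1, and Gm13267, which overlaps Dhtkd1, held 0.651% and 0.344%. The sources used here do not state whether counting used strand, so reads in the shared bases cannot be assigned to a gene.

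Of 20 tested genes that overlap or flank the 8, 1 was called between diets, against 3.78% of all genes tested. This was Inhba, which encodes the beta A subunit of activin and inhibin and lies 825850 bases beyond the 3′ end of Sugct. Inhba lay at 22.5, 51.8 and 67.4 CPM on the control diet and at 8.19, 16.0 and 30 CPM on the ketogenic diet. The ranges overlapped through control 4 at 22.5 CPM and ketogenic 3 at 30 CPM. Inhba fell by 1.56 (log2; SE 0.31; edgeR adjusted p = 0.0122; adjusted p 0.00401 to 0.0337 with each library left out). Syce2, the gene that overlaps Gcdh, was at 0.44 ± 0.13 (edgeR adjusted p = 0.0840) and was called with DESeq2 (adjusted p = 0.0297) and without ketogenic 1 (adjusted p = 0.0415).

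Promoter windows, 250 bases before to 50 after the annotated start, were found in RefSeq (GRCm38.p6) for 6 of the 8 genes, all but Aldh7a1 and Adhfe1. Those of Sugct (chr13:17694716-17695015, minus strand), of Gcdh (chr8:84893872-84894171, minus strand), its closest match among the 8 within diets, and of Aass (chr6:23132937-23133236, minus strand), the gene with no higher mean, are shown to compare their composition. Each is written 5′ to 3′ in the direction of the gene, and capitals mark matches on either strand of the TATA box motif TATAAA, the box motif CCAAT, the GC box motif GGGCGG, the HNF4 motif CAAAGTCCA, the nuclear receptor motif AAGGTCA, the palindromic motif of NRF1 and the direct repeat bound by PPAR receptors. The motif AAGGTCA was added after the Sugct window was seen.
Sugct: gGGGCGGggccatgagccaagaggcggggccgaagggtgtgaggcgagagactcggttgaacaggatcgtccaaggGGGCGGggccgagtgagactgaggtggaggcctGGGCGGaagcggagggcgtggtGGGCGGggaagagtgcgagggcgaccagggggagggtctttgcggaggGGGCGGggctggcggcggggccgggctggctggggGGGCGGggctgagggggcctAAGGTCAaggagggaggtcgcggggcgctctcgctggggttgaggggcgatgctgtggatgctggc
Gcdh: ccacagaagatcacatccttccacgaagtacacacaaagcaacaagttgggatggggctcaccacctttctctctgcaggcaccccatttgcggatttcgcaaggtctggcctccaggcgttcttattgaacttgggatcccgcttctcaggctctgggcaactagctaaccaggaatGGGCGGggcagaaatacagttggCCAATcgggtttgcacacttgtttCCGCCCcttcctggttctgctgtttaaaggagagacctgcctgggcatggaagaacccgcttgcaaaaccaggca
Aass: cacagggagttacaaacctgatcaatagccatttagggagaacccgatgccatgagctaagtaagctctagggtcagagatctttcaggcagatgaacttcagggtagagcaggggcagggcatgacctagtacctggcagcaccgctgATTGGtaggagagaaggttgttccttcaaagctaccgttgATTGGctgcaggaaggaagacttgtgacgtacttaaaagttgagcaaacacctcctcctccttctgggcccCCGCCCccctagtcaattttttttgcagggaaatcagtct

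The Sugct window held 6 matches of GGGCGG, the GC box that factors of the Sp1 family are known to bind, all on the gene's strand, and a count of at least 6 was found in 1.36% of 27025 promoter windows. At least 1 match was found in 35.91% of them; Gcdh held 2 and Aass 1. Its GC content was 73.7% with 25 CpG, reached or passed by 4.85% of windows, against 54.0% and 9 CpG in Gcdh and 50.3% and 5 CpG in Aass. The window of Sugct held no CCAAT, which 37.92% of windows hold, while Gcdh held 1 and Aass 2. TATAAA, found in 14.16% of windows, the NRF1 motif (4.78%) and the PPAR repeat (0.04%) were not in any of the 6 windows. AAGGTCA, known to be bound by several nuclear receptors, was in the Sugct window and in 4.66% of all windows. CAAAGTCCA, known as a binding motif of HNF4, matched in Aadat and in 0.48% of all windows. These matches describe letters in the windows and not bound sites.

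Other genes of the pathway and of steps linked to it were described in 6 lists with none of the 8 in them. Of 49 tested genes in these lists, 7 rose, against 2.34% of all genes tested, and 2 fell, against 1.44%. The lists were chosen with earlier results of these data known, so these counts are a description. The other 40 were not called, and the median log2 fold change was 0.25, against -0.001 over all genes tested. Without ketogenic 4, 10 rose and 3 fell, among them Etfb, Abat and Aldh5a1 (higher) and Phgdh (lower), which were not called with all libraries. Calls below are edgeR's quasi-likelihood test with Benjamini-Hochberg adjustment over all 13995 genes.

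**Figure D5:**
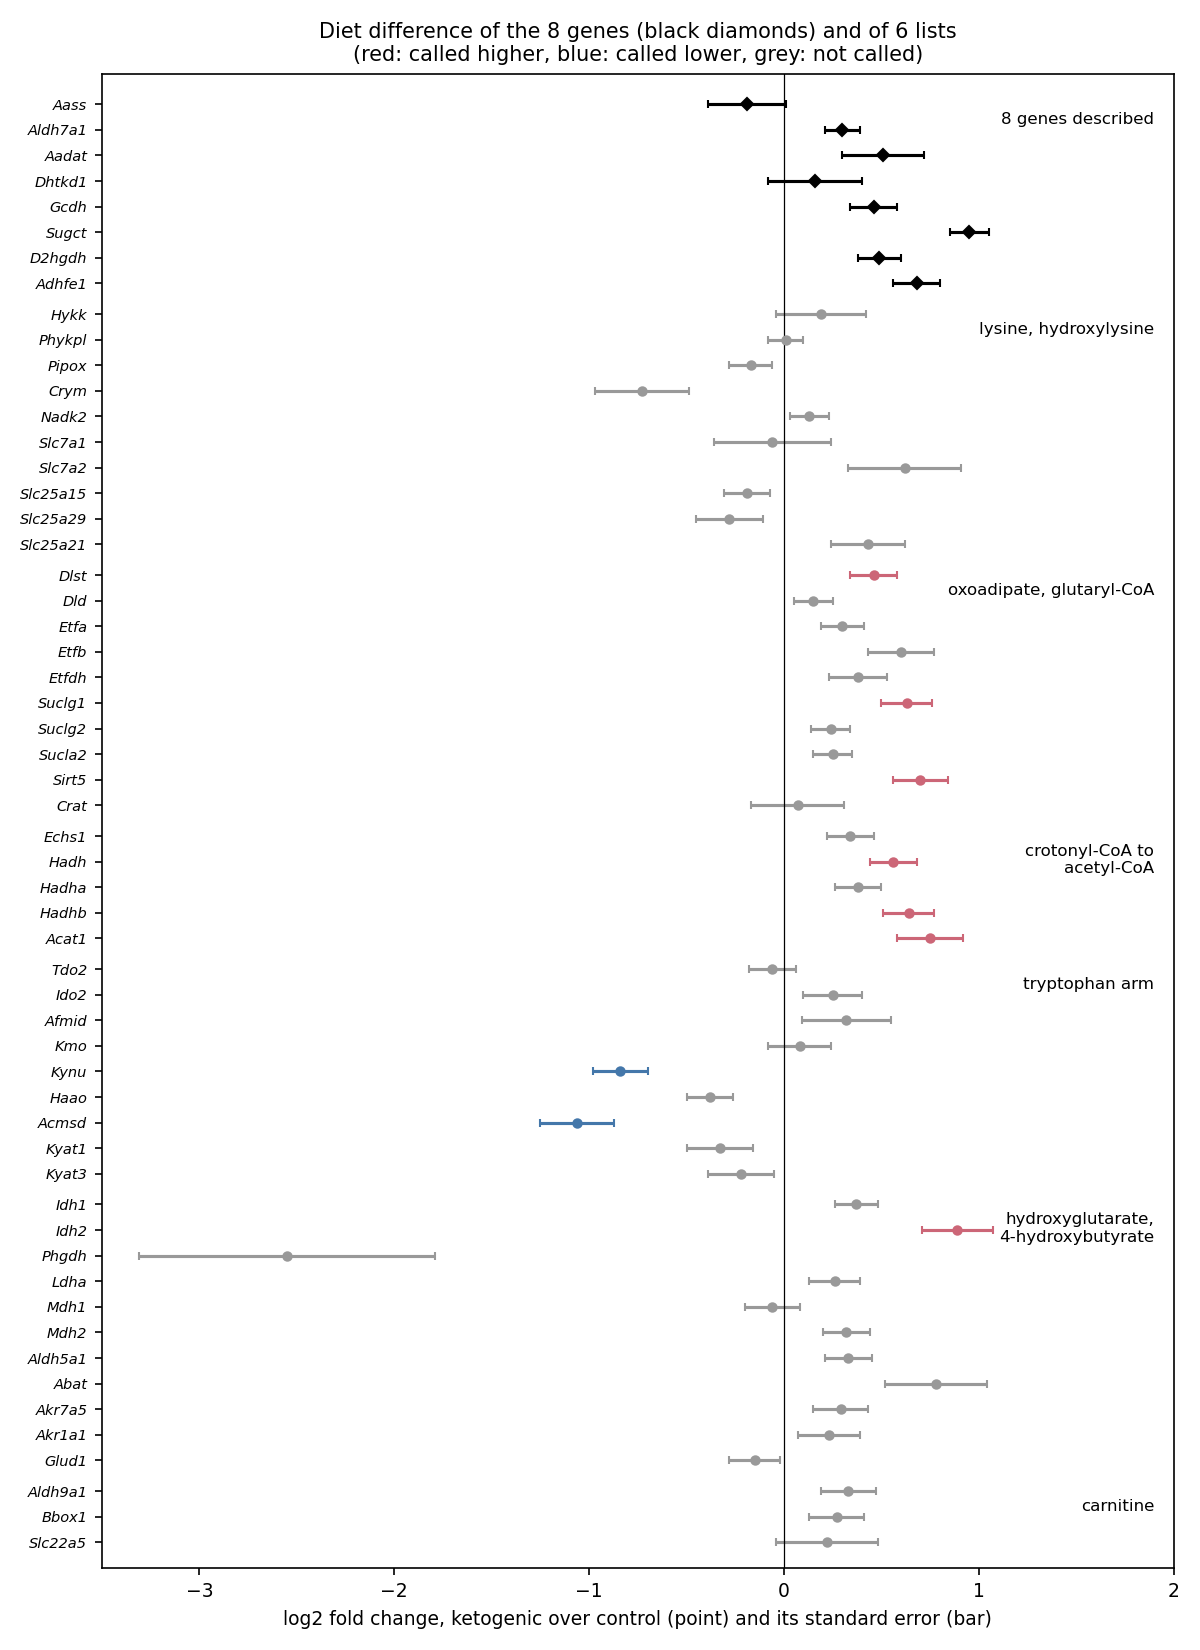
Log2 fold change, ketogenic over control (point), and its standard error (bar) for the 8 genes (black diamonds, no call shown) and for tested genes of 6 lists, all but 1 gene (circles; red called higher, blue called lower, grey not called). The calls stand in the glutaryl-CoA partners, the list named crotonyl-CoA to acetyl-CoA, Idh2 and the tryptophan arm.

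Of the 10 other genes of lysine and hydroxylysine breakdown and transport, 0 rose and 0 fell (median log2 fold change -0.02, with 5 above 0). The smallest p was that of Crym, a ketimine reductase of the pipecolate branch, at a low level of 2.21 ± 0.660 against 1.33 ± 0.285 CPM (-0.73 ± 0.24, adjusted p = 0.114; called with DESeq2, adjusted p = 0.0431, and without control 4, adjusted p = 0.0454). Pipox, the pipecolate oxidase gene, was at -0.17 ± 0.11, and Hykk, the hydroxylysine kinase gene, at 0.19 ± 0.23. Slc7a2, a cationic amino acid transporter of liver, ran from 196 to 401 CPM on the control and from 155 to 726 CPM on the ketogenic diet (0.62 ± 0.29, adjusted p = 0.308).

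Among 10 partners of the oxoadipate and glutaryl-CoA steps, 3 rose, 0 fell and 7 were not called (median log2 fold change 0.34, all 10 above 0). Suclg1, the shared alpha subunit of succinyl-CoA ligase, was at 157, 203 and 222 CPM on the control and at 254, 295 and 398 CPM on the ketogenic diet and rose without overlap (0.63 ± 0.13, adjusted p = 0.0116). Sirt5, the mitochondrial deacylase known to remove glutaryl and succinyl groups from lysines of proteins, rose from 9.95 ± 1.54 to 16.1 ± 3.08 CPM (0.70 ± 0.14, adjusted p = 0.0129). Dlst, the transferase component known to be shared by the 2-oxoglutarate and 2-oxoadipate dehydrogenase complexes, lay at 129, 162 and 198 CPM against 181, 237 and 255 CPM and rose close to the threshold (0.46 ± 0.12, adjusted p = 0.0474). Its call was lost in 10 of the 12 fits with a library left out, all but those without control 4 or ketogenic 4 (adjusted p 0.0128 to 0.113). The electron acceptors of Gcdh, Etfa and Etfb with their oxidoreductase Etfdh, were at 0.30 ± 0.11, 0.60 ± 0.17 and 0.38 ± 0.15 (adjusted p = 0.149, 0.0658 and 0.200). Without ketogenic 4, the highest library of Etfb at 83.5 CPM, Etfb was at 0.41 ± 0.11 (adjusted p = 0.0398). Ketogenic 4 was also the highest in Suclg1 and Sirt5, at 0.54 ± 0.10 and 0.60 ± 0.12 without it (adjusted p = 0.00903 and 0.0130).

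Past Gcdh, crotonyl-CoA reaches acetyl-CoA by steps shared with beta-oxidation. Of 5 tested genes of mitochondrial beta-oxidation and thiolysis, 3 rose and 0 fell, with a median log2 fold change of 0.56. Which of the 5 act on carbon from lysine was not tested. Hadhb, a thiolase subunit, lay at 161, 211 and 290 CPM against 297, 337 and 373 CPM, Hadh at 197, 249 and 313 CPM against 345, 364 and 414 CPM, and Acat1, the acetoacetyl-CoA thiolase of mitochondria, at 210, 408 and 491 CPM against 548, 667 and 756 CPM. None of these 3 overlapped between diets (adjusted p = 0.0110, 0.0144 and 0.0275). The call of Acat1 did not hold in 6 of the 12 fits with a library left out (control 1 and 3, ketogenic 2, 3, 5 and 6). The same 3 were called without ketogenic 4. No call of Suclg1, Sirt5, Hadhb or Hadh was lost with a library left out.

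The tryptophan arm, whose carbon also reaches 2-oxoadipate, held the 2 falls. Of its 9 members, 2 fell, 0 rose and 7 were not called (median log2 fold change -0.22). Kynu, kynureninase, lay at 175, 198 and 250 CPM on the control diet and at 83.2, 112 and 140 CPM on the ketogenic diet and fell by 0.84 in log2 units (SE 0.14, adjusted p = 0.00370). Acmsd, the decarboxylase that turns the arm towards 2-oxoadipate and away from NAD, lay at 16.5, 21.0 and 32.2 CPM against 7.32, 10.8 and 14.8 CPM and fell by 1.06 (SE 0.19, adjusted p = 0.00675). Neither gene overlapped between diets, and both remained called without ketogenic 4 (adjusted p = 0.00340 and 0.00916). The entry enzyme Tdo2 was at -0.06 ± 0.12. Aadat, which also transaminates kynurenine, was described above with a higher mean.

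Of 12 other genes of hydroxyglutarate and 4-hydroxybutyrate metabolism, Idh2 was the 1 that rose, 0 fell and 11 were not called (median log2 fold change 0.28). Idh2, the mitochondrial isocitrate dehydrogenase that forms 2-oxoglutarate, lay at 66.9, 82.9 and 124 CPM on the control diet and at 124, 142 and 216 CPM on the ketogenic diet and rose by 0.89 ± 0.18 (adjusted p = 0.0116). Each ketogenic library lay above each control by a gap too small to show at 3 digits. Without ketogenic 4, the highest library at 216 CPM, the rise was 0.78 ± 0.16 (adjusted p = 0.0148). Abat and Aldh5a1, which lead from GABA to succinate beside 4-hydroxybutyrate, were at 0.78 ± 0.26 and 0.33 ± 0.12 (adjusted p = 0.116 and 0.147; 0.92 ± 0.22 and adjusted p = 0.0295 for Abat without ketogenic 4). Phgdh, of serine synthesis and able to form 2-hydroxyglutarate, was low and variable, from 0.377 to 7.15 CPM and from 0.140 to 1.38 CPM (-2.55 ± 0.76, adjusted p = 0.0866; -3.43 ± 0.78, adjusted p = 0.0276 without ketogenic 4).

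Carnitine is made from trimethyllysine, another fate of lysine residues. Of 3 genes tested (Aldh9a1, Bbox1 and Slc22a5; Tmlhe was not analysed here), 0 rose and 0 fell, with a median log2 fold change of 0.27. Aldh9a1, the aldehyde dehydrogenase of carnitine synthesis, had the smallest p, at 292 ± 47.1 against 367 ± 63.5 CPM (0.33 ± 0.14, adjusted p = 0.247).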

How the data were processed

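RNA of 12 mouse liver samples (6 per diet) was prepared, per the labels' protocols, with a column kit and a NEBNext Ultra kit from 1 μg of RNA. The authors deposited raw counts per gene, whole numbers with no normalization. Per the submitters' processing notes, the tools were Cufflinks, StringTie 1.3.4d, HISAT2 2.1.0 and fastp 0.19.3, with no role stated. The sources used here name no counting program, strand setting, annotation or genome build. Among 26914 gene IDs found in GENCODE M21 (GRCm38), 554 had the table's start and end, so no build is assigned to the table's coordinates; exon lengths (union of exons) came from GENCODE M21 by ID.

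Diets were compared with edgeR 4.0.16 (R 4.3.3): filterByExpr by diet, TMM, robust glmQLFit and glmQLFTest with diet as the only term, and a call at adjusted p under 0.05. The SE is the log2 fold change over the square root of F. Alternatives were DESeq2 1.42.0, limma-voom (limma 3.58.1), RLE factors, library size only, 2 other filters, an adjusted p under 0.01, the replicate block and each library left out. The steps recovered known changes when tested on simulated data. Libraries of a diet differed by more than sampling noise (chi-square of at least 40.81 per degree of freedom). The spread between libraries sets the precision, and copies from amplification are included in the counts.

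The 8 genes, the lists and the tests were chosen with earlier results of these data known. Named beside the 8 are, per list, up to 3 called genes with the smallest p (else the smallest p), called or overlapping neighbours, and the genes most and least like Sugct by Pearson r of log2 CPM (prior count 2). The other list genes named were chosen after their values were seen. Counts over the lists include 1 gene whose values are not reported here.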

Additional observations from a re-analysis of the deposited data

Results flagged for a closer look

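In each diet, the highest and lowest library of each of the 8 genes and of the 11 list genes named by rule was compared with its neighbour, 38 groups of 6 in all, of which chance flags about 1 in 20. In D2hgdh, ketogenic 4 lay at 32.7 CPM, apart from the other ketogenic libraries, whose group median was 40.3 CPM. In Idh2, control 5 lay at 124 CPM, above a control median of 82.9 CPM.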

How the results depend on the processing

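The log2 fold changes of the 8 genes kept their sign and moved by less than the spread between libraries (1 SD) in all 19 alternatives run for each; with each library left out, Sugct ran from 0.92 to 1.00, Adhfe1 from 0.62 to 0.76, D2hgdh from 0.42 to 0.55, Gcdh from 0.41 to 0.52, Aadat from 0.38 to 0.62, Aldh7a1 from 0.25 to 0.33, Dhtkd1 from 0.01 (without ketogenic 6) to 0.33 (without ketogenic 4) and Aass from -0.30 to -0.11. Over all genes, 328 rose and 201 fell; the counts were 140 and 57 at an adjusted p under 0.01, 588 and 440 with DESeq2, 175 and 93 with the replicate block, 448 and 127 with library size only (which moves the split towards rises), and 213 to 445 and 106 to 316 with a library left out. Counts moved by over 1.5 times without control 1 (121 fell), control 3 (213 rose, 106 fell), ketogenic 2 (133 fell), ketogenic 3 (129 fell), ketogenic 4 (316 fell) and ketogenic 6 (218 rose, 118 fell). Of the list genes, 7 rose and 2 fell; the counts were 0 and 2 at an adjusted p under 0.01, 11 and 5 with DESeq2, 1 and 2 with the replicate block, and 5 to 10 and 2 to 3 with a library left out. With a library left out, 1 to 2 neighbours were called (2 without ketogenic 1). Inhba was not called with no filter on low counts (adjusted p = 0.0573). Dlst was not called with RLE factors (0.46, adjusted p = 0.0521) or with no filter on low counts (0.46, adjusted p = 0.0856). Same-numbered deviations had r over 0.1 in 3 of 6 pairs (-0.291 to 0.336), and 2 of 6 libraries matched their own number best. Between unlike numbers r was -0.337 to 0.367. No clear pairing by replicate number was seen, but 6 pairs cannot exclude it. The block is therefore given as a count only. The causes of these changes were not tested.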
